A study of Mus musculus with 6 samples.

Results

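The platelet-derived growth factor (PDGF) genes examined here are the 4 ligand genes Pdgfa, Pdgfb, Pdgfc and Pdgfd and the 2 receptor genes Pdgfra and Pdgfrb. They were taken by symbol from the 48526 genes of the authors' deposited table, and all 6 were found and tested. RNA came from YFP-positive, Hoechst-sorted cells of meninges-free mouse forebrain at postnatal day 6, on a mixed 129SvJ/C57Bl/6J background. There were 3 Ep400 cko samples, which carried CNP1::Cre, the conditional Rosa26stopflox-YFP reporter and a conditional Ep400 allele, and 3 ctrl samples, which carried the same Cre and reporter, with no conditional Ep400 allele in their labels. Ep400 is the ATPase of a chromatin remodelling complex. Cre was driven by the promoter of Cnp, a gene of oligodendroglial cells, so deletion and YFP both rest on where that promoter has been active. The labels call the sorted cells oligodendrocyte precursor cells (OPCs), the dividing glia that give rise to myelinating oligodendrocytes. The labels do not say whether a sample was 1 animal or a pool, so p-values treat each sample as 1 unit, whatever it held.

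PDGF ligands are secreted as dimers and bind a pair of receptor tyrosine kinases. PDGF-A acts through the alpha receptor and is the main mitogen of OPCs in the developing brain, where neurons, astrocytes and cells of the oligodendrocyte lineage are known sources of it. PDGF-B is released by endothelial cells and recruits pericytes, the contractile cells of small vessels, which carry the beta receptor. PDGF-C and PDGF-D are made with an N-terminal CUB domain that has to be cut off before they bind, PDGF-C chiefly to the alpha and PDGF-D chiefly to the beta receptor.

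Sequence upstream of an annotated start site is shown for the ligand gene that fell most and for the one that rose. RefSeq promoter windows (GRCm38.p6, the mm10 assembly) were found for 4 of the 6 genes, Pdgfa, Pdgfc, Pdgfd and Pdgfra, with 2 windows for Pdgfa. The stretches below are 157 bases at chr5:138995038-138995194 (minus strand) for Pdgfa and 127 bases at chr9:6168236-6168362 (plus strand) for Pdgfd, written 5′ to 3′ on the strand of the gene and cut off at the first annotated exon of the gene that reaches into the window or, for Pdgfd, at the start of the RefSeq gene. Other annotated Pdgfa transcripts start farther upstream, so the Pdgfa stretch lies inside the annotated span of the gene (138976014 to 138997370). From base 138995056 it also overlaps an antisense transcript, 6330403L08Rik. Capitals mark CpG dinucleotides.
Pdgfa: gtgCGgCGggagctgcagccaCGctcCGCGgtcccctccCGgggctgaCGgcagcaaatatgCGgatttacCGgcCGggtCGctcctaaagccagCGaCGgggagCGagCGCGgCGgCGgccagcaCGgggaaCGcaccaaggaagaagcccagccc
Pdgfd: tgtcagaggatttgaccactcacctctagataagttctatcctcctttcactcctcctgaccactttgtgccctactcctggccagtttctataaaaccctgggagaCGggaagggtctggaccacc
The Pdgfa stretch held 20 CpG dinucleotides and was 71.97% G and C, while the Pdgfd stretch held 1 and was 51.2% G and C. Over the first 250 bases of each window, which run on past the stretches shown into an annotated Pdgfa exon and into the RefSeq gene of Pdgfd, the window holding the Pdgfa stretch had 28 CpG dinucleotides and the Pdgfd window 3, against a median of 6 over 32851 mouse windows. The Pdgfc and Pdgfra windows had 3 and 4. On either strand, the GC box GGGCGG occurred 2 times in that Pdgfa window, 0 of them in the stretch shown, and 0 times in the Pdgfc, Pdgfd and Pdgfra windows, and 32.7% of all windows held it. The TATA box TATAAA occurred once in the Pdgfd window, from base 91 of the stretch shown, and in 12.4% of all windows. These matches describe the letters of the windows only.

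The levels of the 6 genes were compared per kilobase (kb) of their longest annotated transcript, as the mean normalised read count over the 6 libraries in the authors' deposited table. Such a level pools both genotypes, and values per sample were not analysed here. Pdgfrb had the highest level at 5975 per kb, at the 96.2 percentile of all tested genes. Pdgfra had 2881 per kb, at the 90.2 percentile. Among the ligand genes Pdgfa had 1697 per kb, Pdgfb 1003, Pdgfc 287 and Pdgfd 104, which placed Pdgfa at the 81.6 percentile and Pdgfd at the 33.9 percentile. Per kb, Pdgfa thus had 1.69 times the level of Pdgfb and 16.3 times that of Pdgfd. The order of the ligand genes was the same with the mean transcript length and with the union of all exons. That of the receptor genes was not: Pdgfrb had 2.07 times the level of Pdgfra per kb of the longest transcript and 3.01 times that level per kb of all exons, but 0.834 of it per kb of mean transcript length, as the 9 annotated Pdgfra transcripts average 2745 bases and the longest has 6834.

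**Figure D1:**
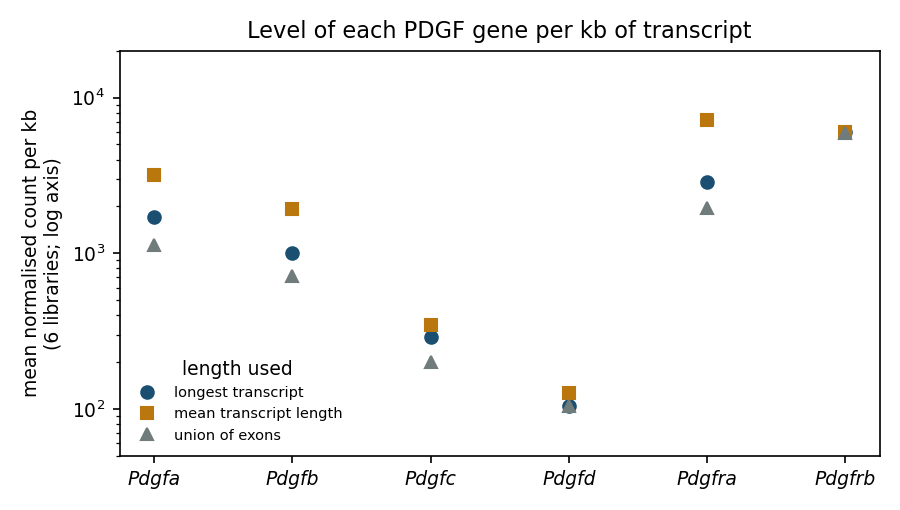
Mean normalised read count per kb of transcript (log axis) over all 6 libraries for each PDGF gene, from the authors' deposited table, with 3 ways of measuring length. The receptor genes lie above the ligand genes in each way, and Pdgfd is lowest at 104 per kb of its longest transcript.

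The abundance of Pdgfrb, which OPCs are not known for, was set beside the defining markers of the cells in the sort. Reads were found in the authors' deposited table for all markers searched, those of OPCs and those of the 8 other cell types. The median level was 3290 per kb over the OPC markers, below Pdgfrb at 5975. Single OPC markers lay on both sides of Pdgfrb, with Ptprz1 at 43665 and Olig1 at 22205 per kb, and C1ql1 at 2429 and Cspg4 at 1877. The median was 4021 per kb over the pericyte markers, 848 over the endothelial and 586 over the fibroblast markers. It was 3245 over the myelinating oligodendrocyte, 1020 over the smooth muscle and 343 over the neuron markers. The astrocyte and microglia markers had medians of 11841 and 21474 per kb. In RNA from a whole sorted population, fewer cells of a type and less RNA per cell cannot be told apart.

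The central comparison asks which of these transcripts differ in Ep400 cko cells. Of the 6 genes, Pdgfa and Pdgfb fell, Pdgfd rose and Pdgfc, Pdgfra and Pdgfrb did not pass, at an adjusted p under 0.05 in the authors' DESeq2 comparison. The 3 of 6 called stand beside 12.2% of all 20101 tested genes called in either direction, the 2 that fell beside 4.61% called lower and the 1 that rose beside 7.64% called higher. The median log2 fold change of the 6 genes was -0.17, against 0.00 over all tested genes. All fold changes are Ep400 cko over ctrl and are moderated towards 0, so they understate the ratio of means. The table holds a fold change, its SE and a test per gene and no value per sample, so overlap between the samples of the groups could not be examined.

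**Figure D2:**
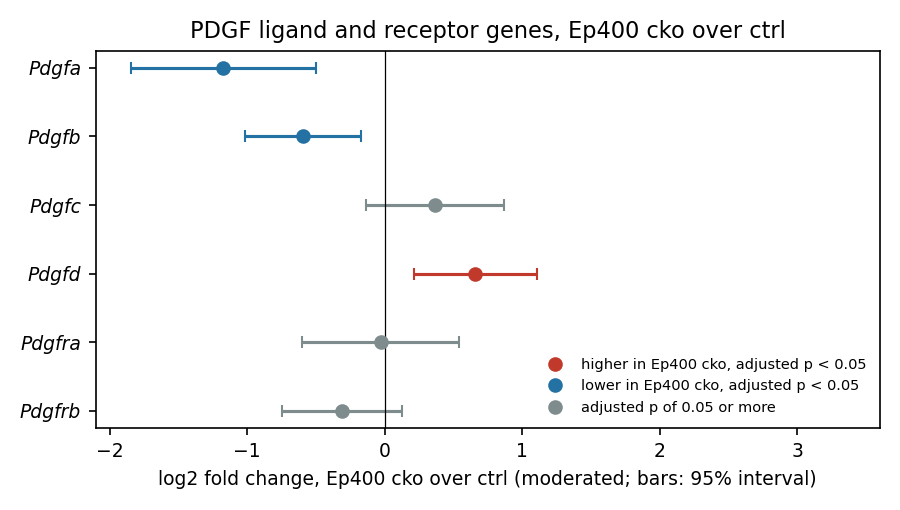
Moderated log2 fold change, Ep400 cko over ctrl, of each PDGF gene in the authors' deposited table, with bars for the 95% interval (3 samples per group). Pdgfa at -1.17 and Pdgfb at -0.59 lie below 0 with their whole interval, Pdgfd at 0.66 lies above it, and the intervals of Pdgfc, Pdgfra and Pdgfrb include 0.

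Pdgfa, the OPC mitogen, fell by 1.17 ± 0.34 (SE, log2) in the authors' deposited table, with a 95% interval of -1.84 to -0.50 and an adjusted p of 0.010. On the linear scale this is 0.444 of the ctrl level, with an interval of 0.279 to 0.706. Its Wald statistic of -3.43, the fold change over its SE, lay at the 1.85 percentile of all tested genes. The call held in 5 of 7 alternatives and was lost when Wald statistics were divided by their robust SD (adjusted p = 0.68) and under Holm adjustment (adjusted p = 1), with a range of 0.0084 to 1. The 2 other PDGF calls were lost there too. The gene spans bases 138976014 to 138997370 of chromosome 5 (minus strand, mm10) and has 7 annotated transcripts. An antisense transcript, 6330403L08Rik, overlaps its 5′ part by 2315 bases. In the authors' deposited table that transcript averaged 990 normalised reads, against 3497 for Pdgfa, and it stood at -0.76 ± 0.34 (adjusted p = 0.13). The libraries were stranded, per the labels' protocols, but whether counting used strand is not stated, so reads of this pair may be mixed.

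Pdgfb, the endothelial ligand, fell by 0.59 ± 0.21 in the authors' deposited table (95% interval -1.01 to -0.17, adjusted p = 0.046), or 0.662 of the ctrl level. It spans bases 79995874 to 80014977 of chromosome 15 (minus strand). Its call sat close to the threshold. It was lost when every gene with a p-value was adjusted together, without the filter on low means (adjusted p = 0.066) and when trends with transcript length and GC content were taken out (adjusted p = 0.13), and the 7 alternatives gave 0.039 to 1.

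Pdgfd was the ligand gene that rose, by 0.66 ± 0.23 in the authors' deposited table (95% interval 0.21 to 1.11, adjusted p = 0.037), or 1.58 times the ctrl level. It was also the least abundant of the 6, with a mean of 327 normalised reads. It spans bases 6168584 to 6378850 of chromosome 9 (plus strand), and Ddi1, a gene inside it on the other strand, is listed at 0. The call was lost in the same 2 settings (adjusted p = 0.053 and 0.080), and the 7 alternatives gave 0.031 to 1. Pdgfc, the other CUB-domain ligand gene, on chromosome 3 from 81036416 to 81214040, did not pass in the authors' deposited table, at 0.37 ± 0.26 (95% interval -0.14 to 0.87, adjusted p = 0.38). The fold changes of the ligand genes thus had a negative sign for the pair without a CUB domain and a positive sign for the pair with one, with Pdgfc not passing. Whether 2 genes differ in fold change was not tested, because that needs values per sample.

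Neither receptor gene passed. Pdgfra, which marks OPCs and is also expressed by fibroblasts, had a log2 fold change of -0.03 ± 0.29 per the authors' deposited table (adjusted p = 0.97), and its 95% interval of -0.60 to 0.54 spans 0.658 to 1.46 times the ctrl level. It lies on chromosome 5 from 75152292 to 75198215. Pdgfrb, which marks pericytes, had a log2 fold change of -0.31 ± 0.22 per the authors' deposited table (95% interval -0.75 to 0.13, adjusted p = 0.40). It lies on chromosome 18 from 61045150 to 61085061. No change of a size within these intervals is excluded by them. The mean normalised counts of Pdgfra and Pdgfrb lay above 96.9% and 98.7% of tested genes.

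**Figure D3:**
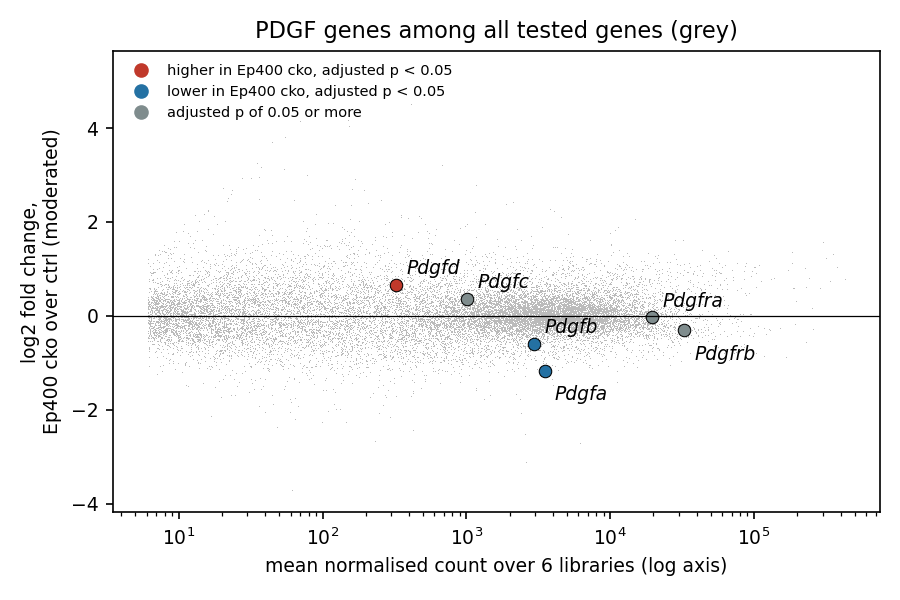
Mean normalised read count (log axis) against moderated log2 fold change, Ep400 cko over ctrl, for all 20101 tested genes in grey and the 6 PDGF genes in colour, from the authors' deposited table. Pdgfa at -1.17 lies below most genes of like abundance, and the receptor genes lie near 0 at the right.

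The share of markers that passed, of the cells that make or receive PDGF, differed from list to list, beside 12.2% of all tested genes, and the part of marker shifts in the values above was not tested. Summed marker levels per group were not analysed here, so each list is given by its calls and its median. Of 14 tested OPC markers 3 rose and 2 fell (35.7% called), with a median log2 fold change of -0.37. Whether called or not, 10 of the 14 had a negative fold change and 4 a positive one. Ptprz1 rose by 1.30 ± 0.31 and C1ql1 fell by 1.03 ± 0.29 in the authors' deposited table. Pdgfa lay below all 14 of these markers, and Pdgfra lay above 10 of them. This order, and each order of genes and markers below, is one of moderated fold changes. Moderation need not be equal between genes, so the unmoderated ratios may be ordered otherwise. Of 11 tested markers of myelinating oligodendrocytes 1 rose and 1 fell (18.2% called), the median was -0.82 and the median SE 0.41, and Mog, a myelin glycoprotein gene, was the marker below Pdgfa at -1.22 ± 0.42 in the authors' deposited table. With length and GC trends taken out, C1ql1 and Mog no longer passed (adjusted p = 0.062 and 0.084). Among markers of the other known sources of Pdgfa, 9 of 12 for astrocytes (75.0%) and 2 of 12 for neurons (16.7%) rose and none fell, with medians of 1.04 and 0.19. The called shares of the oligodendrocyte and neuron lists thus lay near that of all tested genes. Their signs were less even: 9 of the 11 oligodendrocyte markers had a negative fold change and 2 a positive one. All 12 neuron markers had a positive one. Pdgfa thus stood at -1.17 while the astrocyte and neuron markers of the lists lay higher.

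For the vascular pair, the lists were taken cell by cell. Of 10 endothelial markers Esam fell by 0.64 ± 0.21 and Slco1c1 rose by 0.93 ± 0.26 in the authors' deposited table, with 20.0% of the list called and a median of -0.35. The Esam call was lost with length and GC trends taken out (adjusted p = 0.097). Pdgfb at -0.59 lay below 9 of these 10. Slco1c1, a thyroid hormone carrier gene, was also the most abundant marker of that list, and it is expressed by astrocytes as well. Of 10 pericyte markers 7 fell and none rose (70.0% called), with a median of -0.74. Des, which encodes desmin, fell by 1.12 ± 0.25 and the matrix gene Vtn by 0.82 ± 0.21 in the authors' deposited table. Rgs5, which had the highest mean count of the list but a lower level per kb than Vtn, stood at -0.68 ± 0.25 and did not pass (adjusted p = 0.058), but it passed with the trends taken out and over means from 80 upwards (adjusted p = 0.023 and 0.049). Pdgfrb at -0.31 lay above 9 of the 10 pericyte markers, all but Notch3, and above all 8 smooth muscle markers, of which 7 fell (87.5%) with a median of -1.37. Of 10 fibroblast markers 6 fell (60.0%) with a median of -0.92, among them Col1a2 by 0.98 ± 0.31 in the authors' deposited table, and both receptor genes lay above 9 of the 10. Pdgfd at 0.66 lay above all 8 smooth muscle markers and 9 of the 10 endothelial markers. Of 10 microglia markers 3 fell and none rose (30.0% called), with a median of -0.45.

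**Figure D4:**
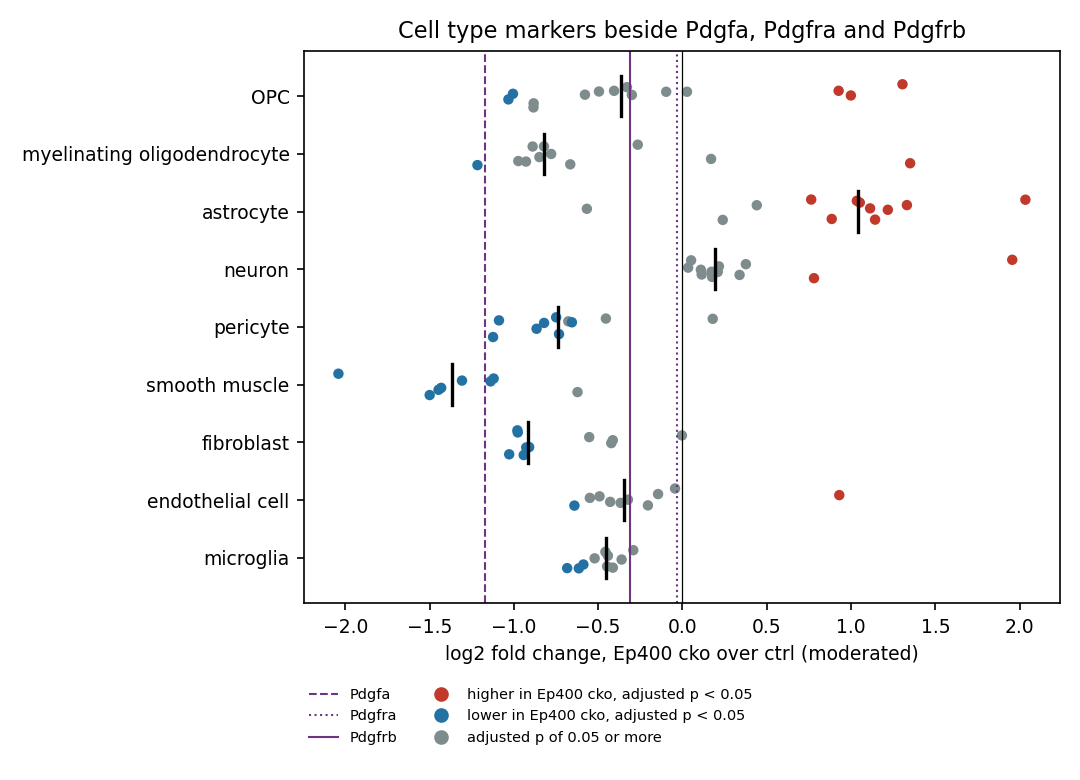
Moderated log2 fold change, Ep400 cko over ctrl, of each tested marker gene (point) with the median of each list (black bar), from the authors' deposited table. Vertical lines mark Pdgfa at -1.17, Pdgfrb at -0.31 and Pdgfra at -0.03. The medians of the pericyte, smooth muscle and fibroblast lists lie left of Pdgfrb and that of the astrocyte list lies at 1.04.

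The steps around the ligands were compared next. Of 7 proteases that cut PDGF ligands 1 fell, none rose and 6 did not pass, with a median of -0.16. That is 14.3% called, near the 12.2% of all tested genes. The 1 that fell was Plau, by 0.50 ± 0.16 per the authors' deposited table (adjusted p = 0.019). It encodes urokinase, which in human cells is known to activate PDGF-D. Plat, which encodes tissue plasminogen activator and activates PDGF-C, was the most abundant and had a log2 fold change of 0.53 ± 0.21 per the authors' deposited table (adjusted p = 0.070). Of 7 co-receptor and binding protein genes 1 rose and 1 fell (28.6% called, beside 12.2% of all tested genes), with a median of 0.09. Nrp1, a co-receptor for several growth factors, rose by 0.76 ± 0.18 per the authors' deposited table (adjusted p = 0.00097). Sparc, whose matrix protein binds PDGF-B, fell by 0.41 ± 0.14 per the authors' deposited table (adjusted p = 0.041), a call lost without the filter and with length and GC trends taken out (adjusted p = 0.058 and 0.099). Cspg4, which encodes the NG2 proteoglycan found on both OPCs and pericytes, had a log2 fold change of -0.33 ± 0.22 per the authors' deposited table (adjusted p = 0.37).

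Inside the cell, few signalling genes passed. Of 32 adaptor, kinase and RAS genes 2 fell and none rose, or 6.25% against the 12.2% of all tested genes, and the median was -0.02. Mapk3, which encodes ERK1, fell by 0.60 ± 0.20 and Nck2, an SH2 and SH3 adaptor gene, by 0.59 ± 0.20 per the authors' deposited table (adjusted p = 0.029 and 0.037). Neither passed once length and GC trends were taken out (adjusted p = 0.13 and 0.083), nor did Nck2 without the filter (adjusted p = 0.052). Fyn, a Src family kinase gene and the most abundant of the list, had a log2 fold change of -0.81 ± 0.34 per the authors' deposited table (adjusted p = 0.10). None of 7 genes for ubiquitin ligases and phosphatases that switch PDGF receptors off passed, in a range of -0.16 to 0.32, and 0 of them had an unadjusted p under 0.05 in the authors' DESeq2 comparison. The share of all tested genes at that unadjusted threshold was not counted.

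Genes that respond to growth factor signalling were split. Of 24 tested, 3 rose, 2 fell and 19 did not pass (20.8% called, beside 12.2% of all tested genes), with a median of -0.10. The ETS factor genes Etv4 and Etv5 rose by 0.99 ± 0.25 and 0.70 ± 0.24 per the authors' deposited table (adjusted p = 0.0026 and 0.032), and Spry2, a feedback inhibitor of receptor tyrosine kinases, by 0.90 ± 0.27 (adjusted p = 0.011). Phlda1 and the immediate early gene Ier2 fell by 0.77 ± 0.21 and 0.56 ± 0.17 per the authors' deposited table (adjusted p = 0.0059 and 0.013), and Ier2 was lost once length and GC trends were taken out (adjusted p = 0.086). Jun, with the highest mean count of the list but a lower level per kb than Etv4, had a log2 fold change of -0.40 ± 0.20 per the authors' deposited table (adjusted p = 0.18). Over the 77 tested genes of the 5 pathway lists, 4 rose and 6 fell, or 12.99% against 12.2% of all tested genes.

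**Figure D5:**
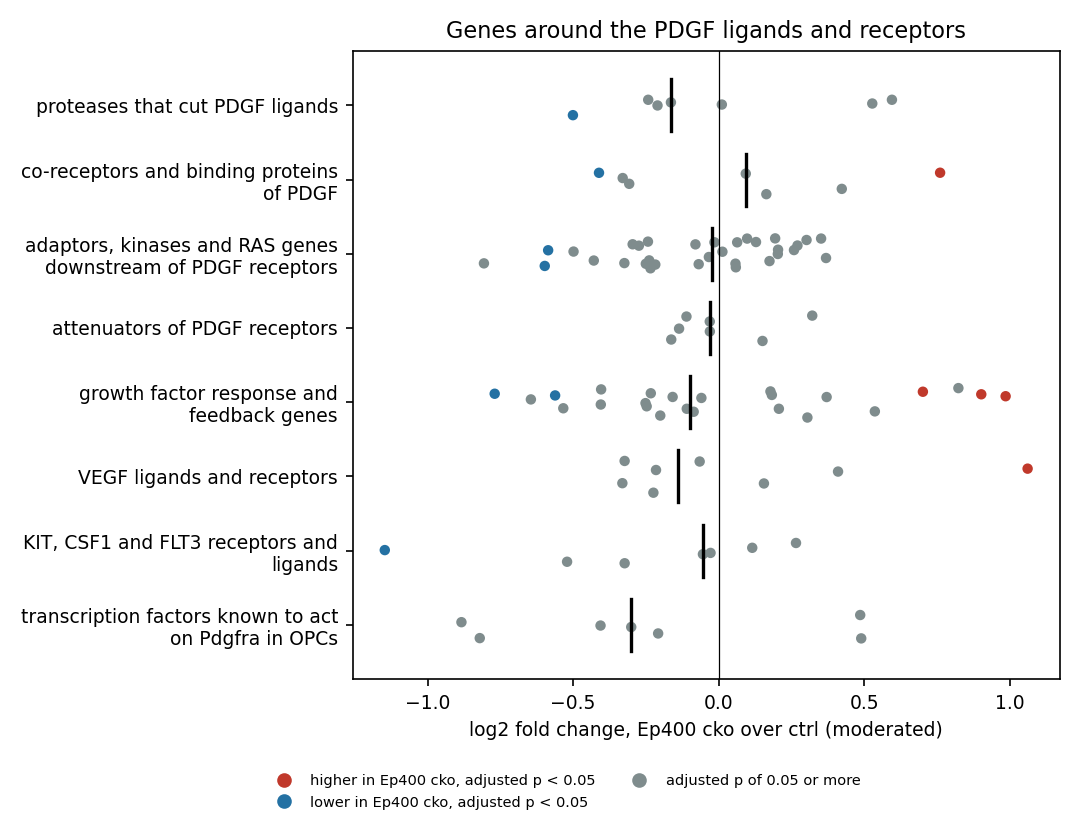
Moderated log2 fold change, Ep400 cko over ctrl, of each tested gene (point) in the lists of pathway genes, related families and regulators, with list medians (black bars), from the authors' deposited table. Most points are grey, and the list of transcription factors that act on Pdgfra has the lowest median at -0.30.

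Relatives and regulators of the receptors were compared last. Of the 8 tested ligand and receptor genes of the related VEGF family, Vegfa rose by 1.06 ± 0.23 per the authors' deposited table (adjusted p = 0.00020) and 7 did not pass, with a median of -0.14. Of the 7 genes of the KIT, CSF1 and FLT3 receptors, which share the domain plan of the PDGF receptors, and their ligands, 1 passed. The called shares were 12.5% of the VEGF list and 14.3% of the KIT, CSF1 and FLT3 list, near the 12.2% of all tested genes. Il34, a ligand of the CSF1 receptor, fell by 1.15 ± 0.24 per the authors' deposited table (adjusted p = 9.2e-05), while Csf1r itself stood at -0.32 ± 0.19 (adjusted p = 0.28). None of 7 transcription factor genes known to act on Pdgfra in OPCs passed, with a median of -0.30, while 4 of them had an unadjusted p under 0.05 in the authors' DESeq2 comparison. Chosen after their values were seen, these were the SoxD gene Sox5 at 0.49 ± 0.18, Sox9 at 0.49 ± 0.25, Sox10 at -0.88 ± 0.41 and Nkx2-2, whose product represses Pdgfra, at -0.82 ± 0.34 per the authors' deposited table (adjusted p = 0.055, 0.19, 0.15 and 0.098). Their signs were mixed. The share of all tested genes with an unadjusted p under 0.05 was not counted, so the 4 of 7 stand without a background. Olig1, the most abundant, had a log2 fold change of -0.30 ± 0.22 per the authors' deposited table (adjusted p = 0.41). Ep400 itself stood at 0.01 ± 0.17 (adjusted p = 0.97) in the authors' deposited table. A count over the whole gene does not resolve deleted exons, so it is no check of the deletion, and the direction of the contrast is known from the table's name only.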

How the data were processed

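One table of the authors' own comparison, 3 Ep400 cko against 3 ctrl samples, was used. It has 0 columns of values per sample and Ensembl 85 identifiers, per the file headers. STAR 2.5.1, HTSeq, DESeq2 and mm10 are named in the submitters' processing notes. The authors' mean signal is a normalised read count over all libraries: the header says raw counts, but 0 means were multiples of 1/6 within 1e-06. The authors' deposited log2 fold changes and log2 SEs are moderated, read from the values: 4042 genes with a mean above 0 and under 1 stay within 0.25, and no SE exceeds 0.42. The SE therefore need not rise with the spread. The score deposited by the authors is the Wald statistic, fold change over SE, and their deposited p-value and adjusted p-value follow from it. Totals per sample were not analysed here. The means sum to 80407433.

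Of 48526 genes, 19785 had a mean of 0, 118 had no p-value, 8522 had no adjusted p-value (means under 6.10) and 20101 were tested. Calls used the authors' adjusted p under 0.05, and 95% intervals are the fold change ± 1.96 SE. Lengths and coordinates came from GENCODE M21 (48144 genes matched). Python 3.11.15, statsmodels 0.14.6 and matplotlib 3.10.9 were used, and the alternatives were tested on simulated data. Members and lists were chosen with earlier results of these data known. Named are the 6 PDGF genes, Ep400, Cspg4, and for each list up to 4 passing genes with the smallest adjusted p and the gene with the highest mean count, whatever its length. Not all are described. Neighbouring genes, Etv5, Notch3, Neu4 and Mobp lie outside that rule, picked with their values in view, and genes with a like pattern need values per sample. Neu4 of the OPC list and Mobp of the oligodendrocyte list had no p-value and so are not among the tested markers. In the authors' deposited table they stood at -0.85 ± 0.42 and -0.72 ± 0.35. Of IDs sharing a symbol the more abundant was used.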

Additional observations from a re-analysis of the deposited data

How the results depend on the processing

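In all, 7 alternatives were run. Pdgfa, Pdgfb and Pdgfd all failed when the Wald statistic was divided by its robust SD of 1.68 (adjusted p = 0.68, 0.83 and 0.81) and under Holm adjustment (adjusted p = 1 for each), settings that left 74 and 296 of the 2462 genes called over the table and 0 of the 6 PDGF genes. With no filter on low genes Pdgfb and Pdgfd failed (adjusted p = 0.066 and 0.053), as they did once length and GC trends were taken out (adjusted p = 0.13 and 0.080), which left 1 PDGF gene called in either. Pdgfa passed in 5 of 7, over a range of 0.0084 to 1. Pdgfc, Pdgfra and Pdgfrb passed in none. Under the robust SD, and under Holm, 0 proteases, 0 co-receptor and binding genes, 0 adaptors and kinases, 0 response genes and 0 VEGF genes passed, and the robust SD also left 0 of the KIT, CSF1 and FLT3 list. Marker calls fell away there too. The robust SD left 1 astrocyte marker called and 0 in each other marker list. Holm adjustment left 1 astrocyte, 1 neuron and 6 smooth muscle markers called and 0 in each other marker list. With no filter, 1 co-receptor or binding gene and 1 adaptor or kinase passed, and with trends removed 1 and 0. When testing covered means from 80 upwards, 1 factor acting on Pdgfra passed (Sox5, named after its value was seen). Of 54 other named genes 12 kept their side throughout, and centring changed none. Per kb of mean transcript length, Pdgfra had 7173, Pdgfa 3172 and Pdgfb 1923, and per kb of all exons Pdgfa had 1121. No paired analysis was possible because the table has no values per sample. Leaving out replicates and another normalization were not run for the same reason.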

Other observations

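Outside the lists, 2 genes named after PDGF were looked up after their values were seen. Pdgfrl, which encodes a PDGF receptor-like protein with no kinase domain, fell by 0.66 ± 0.21 in the authors' deposited table (95% interval -1.08 to -0.25, adjusted p = 0.020, mean 1331 normalised reads). It lies on chromosome 8 from 40926212 to 40990785 (mm10). Pdap1, a gene for a PDGFA-associated protein, did not pass in the authors' deposited table, at -0.39 ± 0.18 (adjusted p = 0.14, mean 8665 normalised reads).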
